A study of Arabidopsis thaliana with 236 samples.

Results

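The 94 loci described here had lower signal on 5 mM nitrate than on low nitrate in both sorted cell types of the Arabidopsis root, the cortex and the pericycle. They were chosen from 27143 measured loci by 4 values: the nitrogen minus standard and the nitrogen minus rhizobium difference, each averaged over 13 hours, in each cell type. The 100 loci whose highest of these 4 values was lowest were taken. Of 9 loci that the rule leaves out by name, 6 lay within those 100 (NLP9, HB53, GLR3.4, DUR3, GLN1;4 and NRT3.1), which left 94. Since the 4 values chose the members, they are given below as a description with no test.

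All plants were Arabidopsis thaliana Col-0 carrying a green fluorescent protein reporter for cortex or for pericycle cells, and all were raised for 9 days on 0.1 mM KNO3 in cycles of 16 h of light and 8 h of dark. At dawn the nitrogen arm went to 5 mM KNO3. The rhizobium arm received Sinorhizobium meliloti cells (OD600 0.8) on 0.1 mM KNO3, and the standard arm went to fresh 0.1 mM KNO3 plates, so both are low-nitrate arms. Protoplasts of whole roots were sorted by fluorescence. The titles give 13 hours from 1 to 48 h for each arm, and 0 h arrays from before the treatment. Cortex was measured on 32 nitrogen, 38 rhizobium and 37 standard arrays and 3 arrays at 0 h. Pericycle was measured on 41 nitrogen, 42 rhizobium and 38 standard arrays and 5 at 0 h. A pair of pericycle standard arrays at 16 h differed by far less than other replicates (r = 0.9992) and enters as 1 array, their mean. The labels name neither the reporter lines nor separate cultures, so p-values reflect only array-to-array variation, which can be technical.

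Nitrate is both a nutrient and a signal in roots. It is reduced to ammonium and built into amino acids, and its presence turns on uptake and assimilation genes within minutes to hours while genes for scavenging, storage and recycling of nitrogen are turned down. The pericycle is the layer inside the endodermis where lateral roots begin and next to which nitrate enters the xylem. The cortex lies outside the endodermis and holds much of the nitrate that the root stores.

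The labels were checked against genes outside the 94. The mean of 7 pericycle and stele markers had a median of 10.16 on pericycle standard arrays, against 8.67 on cortex standard arrays. The mean of 5 cortex markers was no guide between the cell types, with medians of 9.35 on pericycle standard arrays and 9.47 on cortex standard arrays. Endodermis markers (9 genes) had medians of 9.26 on pericycle standard arrays and 6.74 on cortex standard arrays, and epidermis and root hair markers (9 genes) 7.88 and 6.28 on the same arrays. The mean of 10 nitrate-induced genes, NIA1, NIR1 and HB1 among them, had late medians of 13.2 on nitrogen, 10.78 on rhizobium and 11.45 on standard arrays in cortex, and 13.03, 10.86 and 10.95 in pericycle. At 1 to 6 h in cortex the same mean was high in all arms, with medians of 13.47, 12.78 and 12.92 in that order of arms, against 11.83 at 0 h. In pericycle the medians of these hours were 12.93, 12.75 and 12.01, against 12.39 at 0 h.

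Some arrays stood apart. On replicates 2 and 3 of pericycle nitrogen at 14 h the 94 loci averaged 10.96 and 10.12 and the nitrate-induced genes 11.62 and 10.62, whereas replicates 1 and 4 gave 8.94 and 8.88 for the 94 loci and 12.57 and 13.37 for the nitrate-induced genes. Replicate 2 of pericycle rhizobium at 10 h had the reverse pattern, 8.92 and 13.17, and replicate 1 of pericycle at 0 h had a mean of 8.41 for the 94 loci. Without these 4 arrays the rule found 86 of the 94 loci again. The mean of the 94 loci is itself part of what set these arrays apart. Other arrays far from their group were kept, such as replicate 1 of pericycle rhizobium at 4 h, at 8.76. Replicate 4 of pericycle nitrogen at 6 h, at 10.43, was also kept. Counts without the 4 arrays are given with the results below as a description and no separate check. The mean of 9 heat shock genes had a median of 14 on cortex standard arrays, against 9.94 with nitrogen and 9.64 with rhizobium in the same cell type. In pericycle the medians were 9.65 on nitrogen, 9.53 on rhizobium and 10.09 on standard arrays. With that mean as a covariate, 91 of the 94 loci had all 4 nitrate differences below 0, a sign that the choice of members largely fixed.

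The median nitrogen minus standard difference of the 94 loci was -1.54 on the log2 scale in cortex, against 0.08 over all loci, and -1.41 in pericycle, against 0.04 over all loci. The median nitrogen minus rhizobium difference was -1.40 in cortex and -1.18 in pericycle, against -0.001 and -0.03 over all loci. The value that limited membership was most often nitrogen minus rhizobium in pericycle, for 36 of the 94. Just inside the threshold lay ARF16, AT1G76360 and PLC1, whose highest difference was -0.85, and just outside lay AT5G57610 and AT1G76965, also at -0.85, and JAZ5 at -0.84. RefSeq gives a symbol for 46 of the 94. The loci lay on all 5 chromosomes, with 21 of them on chromosome 2 and 21 on chromosome 5. In this annotation AT3G48344 and AT3G48346 are next to each other, as are ELI3-1 and ELI3-2, and whether their probes share signal was not tested.

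**Figure D1:**
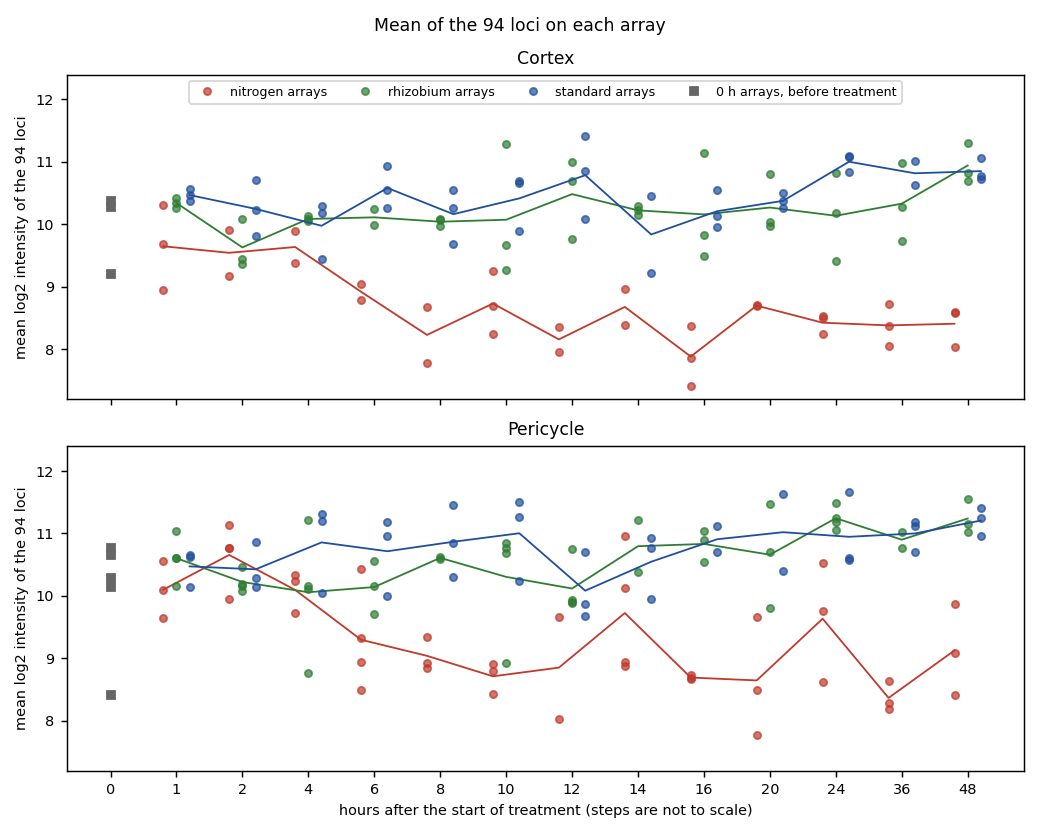
Mean log2 intensity of the 94 loci on each array (points) and the group mean (lines), by hour and arm, in cortex (top) and pericycle (bottom). All nitrogen arrays lie below all low-nitrate arrays of the same hour at 10 of 13 hours in cortex and 8 of 13 in pericycle. The loci were chosen for low nitrogen values on these same arrays, so this separation was largely fixed and nothing is read from it. Some gaps are very small. In pericycle the highest nitrogen and lowest low-nitrate arrays read 8.91 and 8.92 at 10 h and 9.67 and 9.68 at 12 h. In cortex at 10 h both read 9.26.

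The difference opened over the first hours. The nitrate difference is here the nitrogen mean minus the mean of rhizobium and standard at the same hour. Its median over the 94 loci in cortex was -0.79 at 1 to 6 h, -1.88 at 8 to 16 h and -1.92 at 20 to 48 h. In pericycle the medians of the same windows were -0.32, -1.48 and -2.08, and the middle value was -1.74 without the 4 arrays that stood apart. Those 4 include nitrogen arrays with high means of the 94 loci, so leaving them out deepens the value. At 2 h in pericycle the median was 0.31, and nitrogen was the lowest arm for 19 of the 94 loci, where 30.0% of all loci had nitrogen lowest. At 6 h nitrogen was the lowest arm for 78 loci in cortex and 76 in pericycle, where the shares of all loci were 31.1% and 30.9%. At 48 h nitrogen was lowest for 92 in both, where 30.9% and 32.6% of all loci had nitrogen lowest.

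The number of members more than 1 log2 unit below the low-nitrate arms was 28, 87 and 90 of 94 in the early, middle and late windows in cortex. In pericycle it was 11, 83 and 90. Over all loci the shares in cortex were 4.82%, 4.17% and 5.25%. For pericycle they came to 1.11%, 3.58% and 4.89%. In pericycle the lowest hour was 1 to 6 h for 4 loci, 8 to 16 h for 28 and 20 h or later for 62. In cortex it was 1 to 6 h for 7, 8 to 16 h for 50 and 20 h or later for 37. Each window was lower than the window before it for 55 loci in cortex and 66 in pericycle. No share over all loci was computed for the lowest hours or for this order, and the rule favoured deep differences. Nothing particular to these loci is read from those counts.

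**Figure D2:**
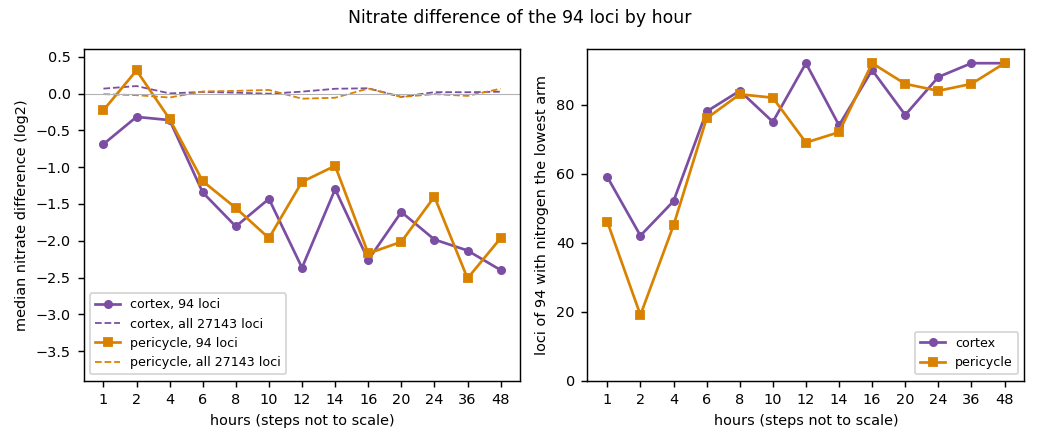
Left, the median nitrate difference (log2) of the 94 loci (solid) and of all 27143 loci (dashed) by hour; right, the number of the 94 loci with nitrogen as the lowest arm. The medians of the 94 loci are -2.40 in cortex and -1.97 in pericycle at 48 h, while those of all loci stay near 0.

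Both low-nitrate arms showed this opening. Against rhizobium alone, the median in pericycle was -0.17 early, -1.50 in the middle window and -2.05 late, and against standard alone it was -0.55, -1.64 and -2.10. In cortex it was -0.56, -1.78 and -1.79 against rhizobium and -0.84, -1.84 and -2.02 against standard. The rule averaged these same hours, so a locus with a deep difference at any hour was favoured, and nothing is read from the following counts. Late minus early, 16 of 94 loci in cortex and 36 in pericycle were lower at an adjusted p under 0.05 (limma), and 14 were lower in both cell types. No member was higher. Over all loci, 1.92% were lower and 0.619% higher in cortex, and 2.21% lower and 0.663% higher in pericycle. These counts fell when a replicate number was left out, to between 3 and 9 in cortex and between 15 and 23 in pericycle. Without the 4 arrays that stood apart they were 18 and 39, and with an early window of 4 and 6 h only they were 1 and 6. With a late window of 24 and 48 h only the pericycle count was 4.

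The late minus early difference was -3.15 ± 0.63 (SE) for MGDC, -3.26 ± 0.83 for BOR5 and -3.33 ± 0.75 for AT2G40250 in cortex. In pericycle it was -3.67 ± 0.78 for AT1G53980, -3.63 ± 0.66 for AT2G36630 and -3.48 ± 0.84 for AT5G36925. The change itself was not called different between the cell types for any of the 94 loci by limma, and 3 had an unadjusted p under 0.05. Over all loci 0.00737% were called higher and 0% lower in pericycle than in cortex.

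Set against 0 h, most of the 94 loci lay lower at later dawns on nitrogen and higher in the low-nitrate arms. The mean of 24 and 48 h, which fall at dawn like 0 h, was below 0 h on nitrogen for 85 of the 94 loci in cortex, with a median of -1.41. It was above 0 h for 68 loci on rhizobium (median 0.49) and 78 on standard (median 0.88). The cortex 0 h mean rests on 3 arrays, whose means of the 94 loci were 9.21, 10.28 and 10.38. How far the lowest of these arrays raised the cortex counts above 0 h was not tested. In pericycle 70 loci were below 0 h on nitrogen (median -0.73), and 85 were above it on rhizobium (median 1.19) and 82 on standard (median 0.99). The medians over all loci lay between -0.10 and -0.004. No share of all loci below or above 0 h was computed, so nothing particular to these loci is read from the counts in this paragraph. These values are a description, since the rule used the same arrays, and the pericycle 0 h mean contains a replicate that stood apart. Without it the pericycle medians were -1.19 on nitrogen, 0.67 on rhizobium and 0.49 on standard, with 81 loci below 0 h on nitrogen and 76 and 60 above it in the low-nitrate arms.

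**Figure D3:**
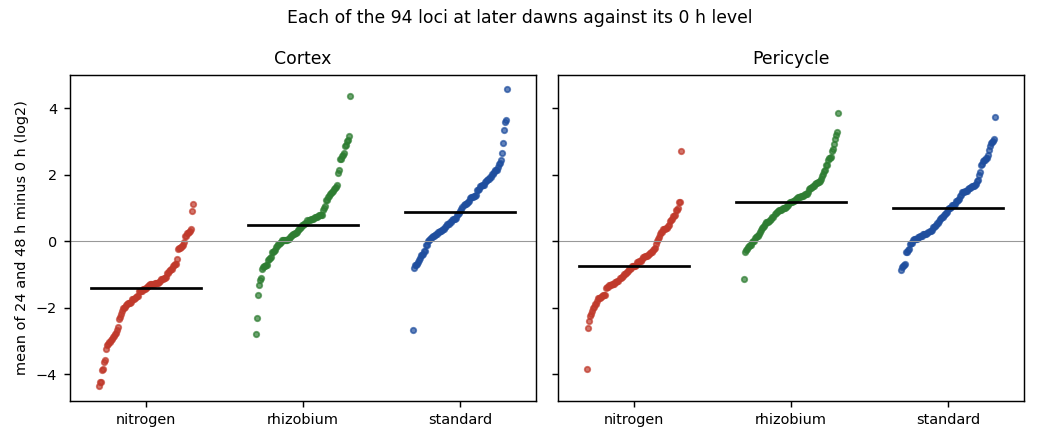
Mean of 24 and 48 h minus 0 h (log2) for each of the 94 loci (points, sorted by value within an arm) in nitrogen, rhizobium and standard arms; black lines are medians. All arrays are included; the nitrogen medians are -1.41 in cortex and -0.73 in pericycle, and the medians of both low-nitrate arms are above 0.

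The loci with the lowest values show the range of levels. AT2G36630, to which RefSeq gives no symbol, had the lowest maximum of the 4 differences, -2.10. In pericycle its level had a median of 8.66 (5.29 to 12.68) on 41 nitrogen arrays, 11.92 (6.36 to 13.32) on 42 rhizobium arrays and 12.05 (9.62 to 13.41) on 37 standard arrays. In cortex the medians were 8.71 (5.99 to 11.52), 11.26 (7.3 to 12.83) and 11.41 (7.57 to 12.51). The whole ranges overlapped, but at 48 h in cortex the nitrogen arrays read 8.77, 9.49 and 8.66, the rhizobium arrays 12.21, 11.78 and 12.27 and the standard arrays 12.29, 12.29 and 12.51, with no overlap.

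MGDC encodes MGD3, a monogalactosyldiacylglycerol synthase whose gene is known for its rise in phosphate-starved roots, where galactolipids replace phospholipids. In cortex its level had a median of 6.53 (4.83 to 10.59) on nitrogen arrays, 10.14 (6.02 to 11.66) on rhizobium arrays and 9.72 (5.85 to 11.21) on standard arrays. In pericycle the medians were 6.15 (4.95 to 10.95), 9.00 (5.47 to 11.37) and 8.87 (5.63 to 10.93). At 48 h in pericycle it read 6.28, 7.60 and 5.76 on nitrogen, 10.11, 10.96 and 10.49 on rhizobium and 9.22, 7.09 and 10.62 on standard arrays. Here 1 nitrogen array lay above 1 standard array, so nitrogen was separate from rhizobium but not from standard at that hour.

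SUFE2 encodes a protein of iron-sulfur cluster assembly. Its median in pericycle was 9.62 on nitrogen, 11.64 on rhizobium and 11.23 on standard arrays, and in cortex 8.58, 10.82 and 11.04. AT2G22760 had medians in pericycle of 9.62, 11.61 and 11.63 in the same order of arms. AT4G39795 was dimmer, with medians of 6.97, 9.20 and 9.10 in pericycle and 6.18, 7.95 and 8.52 in cortex. AT4G12290 had medians of 7.65 on nitrogen, 9.80 on rhizobium and 11.42 on standard arrays in cortex, so the low-nitrate arms themselves differed there. The other 2 of the lowest 8, AT2G32560 and SGP2, had nitrogen medians of 9.63 and 8.82 in pericycle, against 11.44 and 10.43 on standard arrays.

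**Figure D4:**
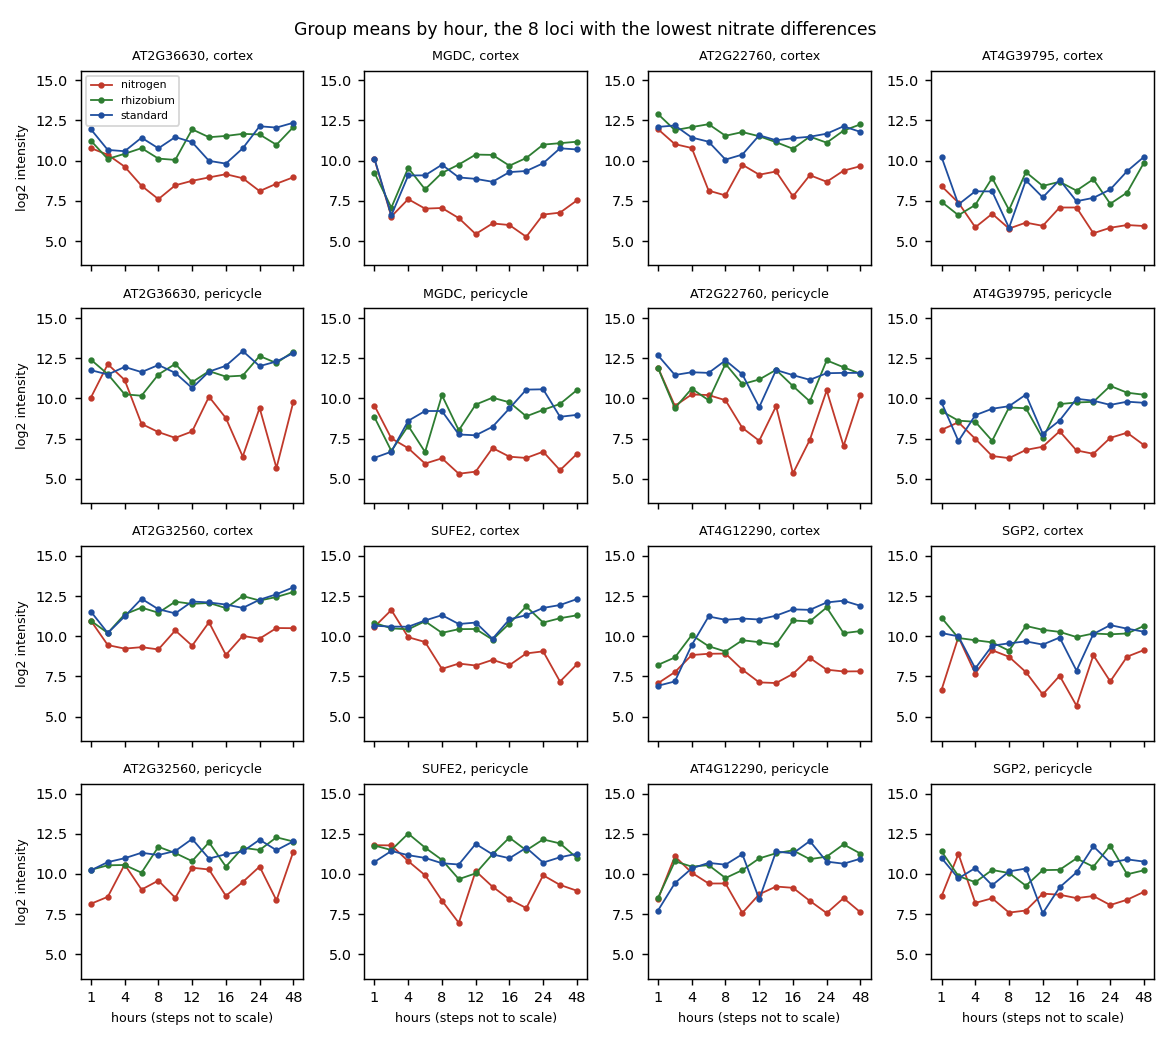
Group means of log2 intensity by hour for the 8 loci with the lowest maximum of the 4 nitrate differences, each in cortex and pericycle, with nitrogen, rhizobium and standard as lines. MGDC has a late nitrate difference of -3.96 in cortex and -3.40 in pericycle, and SUFE2 of -3.20 and -2.37.

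Of the 94 loci, 45 were put in 7 role groups from what their products are known to do, and 49 were left in none. In the membrane lipid group of 7, the median late difference was -2.06 in cortex and -2.09 in pericycle. MGD2 is the close relative of MGD3. Its late difference was -1.31 in cortex and -1.81 in pericycle. PLDP2, a phospholipase D that releases phosphatidic acid from phospholipids, was at -2.23 and -1.72. PSD2, which makes phosphatidylethanolamine by decarboxylation, was at -2.06 and -2.37. PLC1, a phosphoinositide-specific phospholipase C, was at -1.66 and -2.59, LACS8, a long-chain acyl-CoA synthetase, at -1.77 and -2.09, and GLIP4, a GDSL lipase, at -2.19 and -1.30. The group thus holds both enzymes that break down phospholipids and enzymes that make galactolipids.

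The nitrogen and nucleotide recycling group held 7 loci. ASPGB1 is an asparaginase, which frees ammonium from asparagine, a storage form of nitrogen. Its late difference was -2.31 in cortex and -2.98 in pericycle. NIT4, which turns cyanoalanine into asparagine and aspartate, was at -2.14 and -1.41. Other members act on nucleic acids and their parts: RNS1, a ribonuclease, was at -1.71 and -2.33, ENDO2, an endonuclease, at -2.83 and -1.21, and ENT6, a nucleoside transporter, at -1.73 and -1.81. AZG2, a transporter of purines, was at -1.81 and -1.36, and ACR7, an ACT-domain protein, at -1.83 and -2.04. The early medians of this group were -0.27 in cortex and -0.26 in pericycle.

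Among the 6 transcription and growth regulators, AT2G43500 is NLP8, a factor of the NIN-like family known for nitrate-promoted seed germination. It had the deepest late difference of the group, -4.11 in cortex and -2.85 in pericycle. NLP9 was left out by the rule, and whether probes of NLP8 and NLP9 share signal was not tested. NAC3 (ANAC055), a factor of stress and jasmonate responses, was at -1.25 and -2.08, and WRKY30, a defence-linked factor, at -1.95 and -1.75. ARF16, a repressing auxin response factor, was at -1.45 and -1.77. TOE3, of the AP2 family, was at -0.88 and -1.88, and SHB1, a regulator of seed growth, at -1.07 and -1.06. In cortex the group's median was -1.80 in the middle window and -1.35 late.

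The 13 defence and stress loci had a median of -1.91 in cortex and -1.74 in pericycle in the middle window. ELI3-1 and ELI3-2, of the cinnamyl alcohol dehydrogenase family, had early differences above 0 in both cell types, 0.59 and 0.66 in cortex. Their middle differences were then -3.16 and -3.56 in cortex, and their late differences there were -1.22 and -0.94. PEPR2, a receptor of the danger peptides called Peps, was at -1.67 late in cortex and -1.52 in pericycle, and MLO12, a membrane protein of powdery mildew susceptibility, at -2.07 and -1.39. MKK9, a MAP kinase kinase, was at -1.58 and -0.85, and EULS3, a lectin, at -2.03 and -2.49.

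Of the 4 hormone loci, LBO1 encodes an oxidoreductase of strigolactone synthesis, and its middle difference was -0.999 in cortex and -2.93 in pericycle. ABCG40, an importer of abscisic acid, was at -2.30 in cortex and -2.70 in pericycle late. ENP, an NPY family protein linked to auxin transport, was at -1.97 and -2.18, and ILL6, which cleaves amino acid conjugates of hormones, at -0.81 and -2.12. Of the 4 other transporters and channels, BOR5, of the borate exporter family, was at -3.12 and -2.29 and ABCB9 at -3.38 and -1.44. CLT1, a plastid transporter of glutathione precursors, was at -2.20 and -2.18, and CNGC13, a cyclic nucleotide-gated channel, at -1.79 and -1.85. Of the 4 loci of sugar, sulfur and cell wall, TPPD, a trehalose phosphate phosphatase, was at -3.48 and -1.40 late. LSF1, which acts in starch breakdown at night, was at -1.63 and -2.07, and AT2G26440 (PME12, a pectin methylesterase) at -1.69 and -1.27.

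**Figure D5:**
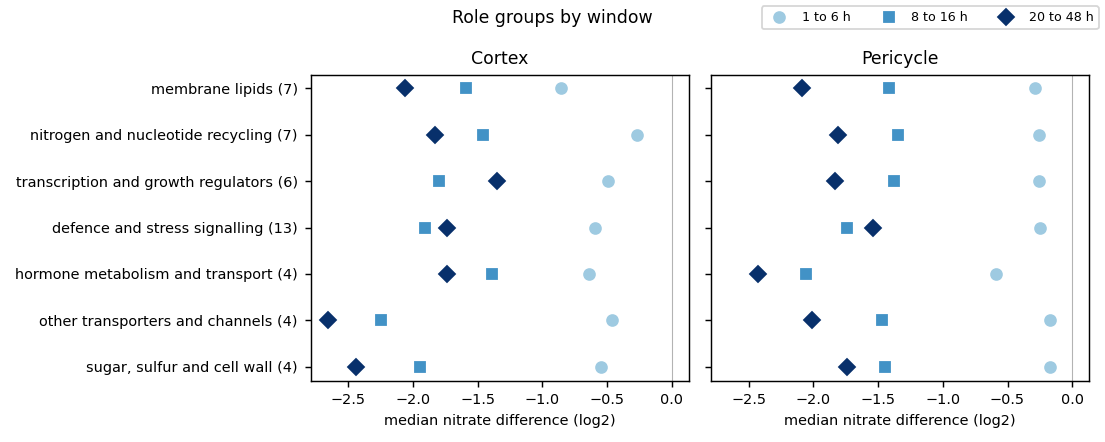
Median nitrate difference (log2) of each role group, with its number of loci, in the early, middle and late windows in cortex and pericycle. In pericycle all 7 medians lie between -0.59 and -0.17 early and between -2.43 and -1.54 late.

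The low-nitrate arms were compared with each other. Rhizobium minus standard equals the difference of 2 of the values that chose the members, so the choice limits it, and its values and counts are given as a description from which nothing is read. In cortex, 8 of the 94 loci were higher and 22 lower on rhizobium than on standard arrays (limma, adjusted p under 0.05), where 21.8% of all loci were higher and 16% lower. In pericycle, 0 were higher and 5 lower, where 13% of all loci were higher and 8.84% lower. At an unadjusted p under 0.05, 0 members were higher and 13 lower in pericycle. The median difference of the 94 was -0.17 in both cell types, against 0.07 in cortex and 0.03 in pericycle over all loci. With the heat shock mean as a covariate the cortex count of 30 became 12. Without the 4 arrays that stood apart the counts were 32 in cortex and 4 in pericycle. The pericycle count fell to between 1 and 3 when a replicate number was left out.

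The largest cortex differences, rhizobium minus standard, were 2.86 ± 0.48 (SE) for AT3G48346, 2.37 ± 0.46 for AT3G48344 and 1.33 ± 0.24 for AT2G36650. The lowest were -2.37 ± 0.40 for ENDO2, -2.28 ± 0.31 for AT3G01210 and -1.89 ± 0.23 for AT2G32140. With the heat shock covariate the ENDO2 difference turned to 0.62. The lowest in pericycle were -1.20 ± 0.35 for LBO1, -1.08 ± 0.38 for AT4G21865 and -0.82 ± 0.23 for AT2G36650. MC7, a metacaspase, and NTMC2T5.2 were the remaining 2 of the 5, at -0.64 and -0.57.

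The difference of these values between the cell types is limited by the choice of members in the same way. The rhizobium minus standard difference was higher in pericycle than in cortex for 13 of the 94 and lower for 10 (limma interaction), where 16.3% of all loci were higher and 17.1% lower. AT3G48346 differed by -3.65 ± 0.67 and AT2G36650 by -2.14 ± 0.33. RNS1 had a value of -0.33 ± 0.30 in pericycle and of 1.22 ± 0.31 in cortex. BOR5 had a value of 0.52 ± 0.35 in pericycle and of -1.53 ± 0.36 in cortex.

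Levels were compared between the cell types on standard arrays of 13 hours and the 0 h arrays, with each hour weighted equally and the pericycle 0 h replicate that stood apart included. Of the 94 loci, 27 were higher and 13 lower in pericycle than in cortex (limma), where 20.8% of all loci were higher and 18.4% lower. The median difference was 0.34, against 0.02 over all loci. AT3G48346 was higher in pericycle by 3.95 ± 0.46, AT3G48344 by 2.99 ± 0.44 and AT2G36650 by 2.64 ± 0.23 (limma, adjusted p = 3.52e-13, 5.82e-09 and 9.34e-21). AT1G26890 was lower at -2.43 ± 0.29, AT2G26440 (PME12) at -1.59 ± 0.35 and AT3G01210 at -1.52 ± 0.30 (limma, adjusted p = 6.26e-13, 9.63e-05 and 1.07e-05). The count of 40 was 23 without replicate 1 and 42 without the 4 arrays that stood apart. In sorted samples, fewer cells that express a gene and less RNA per cell cannot be told apart. The heat shock genes were high on the cortex standard arrays of this comparison. With their mean as a covariate the count was 28, and AT3G48346, AT3G48344, AT2G36650 and AT1G26890 stayed past the threshold. AT3G01210 then stood at -0.25 (limma, adjusted p = 0.737) and AT2G26440 at -1.33 (limma, adjusted p = 0.065).

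Between the cell types, the loci of the named roles divided. LBO1 was higher in pericycle by 1.63 ± 0.34, PSD2 by 1.56 ± 0.33, BOR5 by 1.56 ± 0.34 and RNS1 by 1.51 ± 0.29. ENP was higher by 1.31 ± 0.25 and EULS3 by 1.08 ± 0.23. MGDC was lower in pericycle at -0.82 ± 0.26, NLP8 (AT2G43500) at -0.92 ± 0.22, TPPD at -1.37 ± 0.26 and ENDO2 at -1.49 ± 0.39. All of these passed limma's test. Heat shock genes were high on the cortex standard arrays used here, and values of these loci with that covariate are not given. For ENDO2, the cortex rhizobium minus standard difference turned from -2.37 to 0.62 with it. How far the heat shock state enters these differences between cell types was not tested.

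The low-nitrate arms were also compared between later light hours (10, 12 and 14 h) and dawn (24 and 48 h). The light period ran for 16 h from dawn, so 10, 12 and 14 h lie past its middle. AT2G40250 was lower in the later light hours in both cell types. By limma it was at -3.10 ± 0.52 in cortex (adjusted p = 5.77e-05) and -2.16 ± 0.51 in pericycle (adjusted p = 0.0128). TPPD was lower in cortex, at -1.74 ± 0.43 (limma, adjusted p = 0.0342), and ASPGB1 in pericycle, at -1.68 ± 0.41 (limma, adjusted p = 0.0169). These were the only calls among the 94, 2 in each cell type and 0 higher. Over all loci 0.265% were lower and 0.14% higher in cortex, and 0.475% lower and 0.335% higher in pericycle. The median of the 94 was -0.46 in cortex, with 75 below 0, and -0.65 in pericycle, with 87 below 0, against 0.02 and 0.04 over all loci. The share of all loci below 0, called or not, was not computed, so nothing is read from the counts below 0. The dawn hours came later than 10 to 14 h, whereas 36 h, also a later light hour, lies between them. With 36 h in place of 10, 12 and 14 h, a comparison added after seeing the data, limma called 0 of the 94 in either cell type, and 2 in cortex and 6 in pericycle had an unadjusted p under 0.05. AT2G40250 was then at -0.14 in cortex and 0.29 in pericycle, TPPD at -0.60 in cortex and ASPGB1 at -0.58 in pericycle. The medians of the 94 were -0.12 in cortex, with 57 below 0, and -0.16 in pericycle, with 63 below 0, against 0.01 and 0.04 over all loci. Here too the share of all loci below 0 was not computed. None of the 4 calls passed the test with this hour. When a replicate number was left out, 0 to 1 calls were made in cortex and 0 to 2 in pericycle. Without the 4 arrays that stood apart, 2 and 3 were made.

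Other genes of nitrogen supply and of hormones were read from lists that hold no member, except LBO1 in the strigolactone list. The nitrogen starvation and remobilisation list has 26 genes, of which 5 are named by the rule: DUR3, GLN1;4 and NRT3.1, within the 100 loci and so chosen on these values, and NRT2.4 and GDH3. The counts that follow are therefore given over the 21 others. For nitrogen minus standard in cortex, 2 of the 21 (9.52%) were lower and 0 higher, where 14.8% of all loci were lower and 20.9% higher. For nitrogen minus rhizobium in cortex, 5 were lower (23.8%) and 3 higher, where 7.6% of all loci were lower and 7.21% higher. In pericycle 7 were lower (33.3%) and 1 higher against standard, where 11.1% of all loci were lower and 8.52% higher. Against rhizobium in pericycle, 10 were lower (47.6%) and 0 higher, where 7.92% of all loci were lower and 6.24% higher. The medians of the 21 in these 4 comparisons were 0.07, 0.07, -0.10 and -0.38. Over all 26 genes, 5, 9, 12 and 15 were lower and 0, 3, 1 and 0 higher.

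LHT1, an amino acid importer of root cells, was lower in all 4 comparisons, at -1.47 ± 0.18 against standard and -2.18 ± 0.18 against rhizobium in cortex, and at -0.72 ± 0.17 and -0.98 ± 0.16 in pericycle. AMT1;1, an ammonium importer, was lower against rhizobium in both cell types, at -1.11 ± 0.16 in cortex and -1.17 ± 0.15 in pericycle, and had a value of -0.27 ± 0.16 against standard in cortex, which did not pass limma's test. ASN1, an asparagine synthetase, was at -1.18 ± 0.18 against rhizobium in cortex and at -0.79 ± 0.16 in pericycle. Against standard it was at -1.01 ± 0.17 in pericycle, and its cortex value of -0.06 ± 0.18 did not pass the test. GLN1;2, a glutamine synthetase, was higher on nitrogen against rhizobium in cortex, by 0.93 ± 0.20.

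Of the 7 amino acid permeases other than AAP2, which the rule names, 1 and 1 were lower in cortex and 3 and 4 in pericycle, against standard and against rhizobium, with 0 higher in any. AAP4 and AAP6 were lower in pericycle by limma, at -2.06 ± 0.34 and -2.03 ± 0.28 against standard, and had values of 0.73 ± 0.37 and -0.17 ± 0.30 in cortex. The 19 jasmonate genes had 8 and 13 lower in cortex and 15 and 12 lower in pericycle in the same order, and 6 higher against standard in cortex. JAZ7 and JAZ9, repressors of jasmonate signalling, were among those 6, at 1.94 ± 0.40 and 1.42 ± 0.34, while against rhizobium in cortex both were lower, at -1.60 ± 0.40 and -1.10 ± 0.34. LOX3 and LOX4, lipoxygenases of jasmonate synthesis, were lower in all 4 comparisons, at -1.33 ± 0.19 and -0.998 ± 0.16 against rhizobium in pericycle. Of 10 abscisic acid genes, 2 and 3 were lower in cortex and 5 and 6 in pericycle, and 2 were higher against standard in cortex, near the share of all loci. The 9 strigolactone genes other than LBO1 had 1 and 1 lower in cortex and 2 and 1 in pericycle, and 3 higher against standard in cortex. Over these lists and the nitrogen starvation list together, genes named by the rule included, 28 were called in either direction for nitrogen minus standard in cortex. With the heat shock mean as a covariate that count was 19. Against rhizobium in cortex it was 30 with and without the covariate.

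Most calls in the marker lists were between nitrogen and standard arrays, and fewer were made against rhizobium. A difference against standard only is not read as a response to nitrate. Over all loci, 20.9% were higher and 14.8% lower on nitrogen than on standard arrays in cortex. Against rhizobium there, 7.21% were higher and 7.6% lower. In pericycle 8.52% were higher and 11.1% lower against standard, and 6.24% and 7.92% against rhizobium. All 5 cortex markers were higher on nitrogen than on standard arrays in cortex, with a median difference of 1.29, and 3 of 5 against rhizobium (median 0.78). Of 7 pericycle and stele markers, 4 were higher and 1 lower on nitrogen than on standard arrays in cortex (median 0.60), TIP2;3 by 2.87 ± 0.21, and 0 were called against rhizobium. Of 4 root cap markers, SMB and BRN1 were higher there against standard (list median 0.63) and 0 against rhizobium. In each of the endodermis and xylem lists 1 gene was higher and 1 lower there against standard, and 1 of 3 phloem markers was lower. In pericycle 5 of 9 root hair and epidermis markers were higher on nitrogen than on standard arrays (median 0.58) and 0 against rhizobium. Of the 7 pericycle and stele markers there, 2 were higher and 1 lower against standard, and 1 higher and 1 lower against rhizobium. NPF7.3 was the lower one in both, at -1.41 against standard and -1.01 against rhizobium. BOR1 was higher in both, at 1.01 and 0.89. All 9 heat shock genes were lower on nitrogen than on standard arrays in cortex, with a median of -3.37, and 0 were called against rhizobium there. The part of these markers in the nitrate differences of the 94 loci was not tested beyond the heat shock covariate.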

How the data were processed

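RNA from sorted cortex and pericycle cells was amplified, labelled with Cy3 and hybridised to NimbleGen arrays, per the labels' protocols. The deposited values are on the log2 scale, and the submitters' processing notes name RMA; its version is not given in the sources used here. Whether raw probe signals were above background was not examined. The table has 31524 rows, its values span 3.69 to 15.53, and the median of an array was 8.44 to 9.23. Rows of 1 locus were averaged (3675 of 27143 loci had several, 6 of them among the 94), with no other scaling or filter. Groups came from the sample titles. RefSeq (TAIR10.1) gave the symbols and the order of neighbouring genes. The series text lists 7 h but neither 8 nor 36 h, speaks of epidermal cells once, and the stated ages disagree; the sample titles were followed.

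235 arrays in 80 groups of 2 to 5 were fitted with a group-means model with limma 3.58.1 in R 4.3.3, with Benjamini-Hochberg adjustment over 27143 loci and a threshold of 0.05. The number of arrays limits the precision. The replicate numbers did not pair the arrays: same-numbered arrays of different arms had a mean residual correlation of 0.0013 in cortex and 0.0063 in pericycle. Loci were named by symbol or locus: the 8 with the lowest maximum with their levels, up to 3 in each direction for each test, other members by role, and genes of fixed lists; further members and list genes in the text were chosen after their values were seen. The 94 loci, the lists and the role groups were chosen with earlier results of these data known. The lists were nitrogen starvation and remobilisation, amino acid permeases, strigolactone, jasmonate, abscisic acid, heat shock and markers of cortex, pericycle and stele, endodermis, epidermis and root hair, xylem, phloem and root cap. Alternatives tried were centring, quantile normalization, a filter on dim loci, 1 row per locus, keeping the near-identical pair, each cell type alone, a replicate block, a heat shock covariate and leaving out each replicate number. Leaving out the 4 arrays that stood apart, narrower windows, and 36 h as the later light hour were added after seeing the data. So was the check with 10 nitrate-induced genes.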

Additional observations from a re-analysis of the deposited data

Results flagged for a closer look

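In each of the 10 groups of 4 or more arrays, all of them pericycle groups, 9 quantities were examined for an array far from the others. Smaller groups, which include every cortex group, were not examined. Cortex arrays could differ too: on nitrogen at 1 h the mean of the 94 loci was 10.314, 8.944 and 9.685. Of these 90 tests 11 found such an array, in 7 groups, and chance alone flags about 1 in 20. The 9 quantities of a group share its arrays, so the tests are not independent. For the mean of the 94 loci, replicate 2 of pericycle rhizobium at 10 h read 8.92 against 10.69 to 10.85 for the others. Replicate 1 of pericycle rhizobium at 12 h read 10.76 against 9.88 to 9.93, and replicate 1 of pericycle at 0 h read 8.41 against 10.14 to 10.77.

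For single loci, AT2G36630 read 12.06 on replicate 4 of pericycle nitrogen at 6 h, against 6.68 to 7.53, and 6.71 on replicate 1 of pericycle at 0 h, against 12.16 to 13. MGDC read 5.0 on replicate 2 of pericycle nitrogen at 6 h, against 6.15 to 6.37. AT2G22760 read 5.63 on replicate 1 of pericycle at 0 h, against 11.03 to 12.95. AT2G32560 read 7.42 on replicate 1 of pericycle nitrogen at 14 h, against 11.04 to 11.5. SUFE2 read 7.14 on that array, against 9.66 to 10.05. SUFE2 also read 11.03 on replicate 1 of pericycle nitrogen at 2 h, against 11.94 to 12.1, and 10.79 on replicate 1 of pericycle rhizobium at 24 h, against 12.57 to 12.64.

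The rhizobium minus standard difference was higher in pericycle than in cortex for 13 of the 94 loci and lower for 10 (limma interaction). The choice of members limits this difference, so nothing is read from it.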

How the results depend on the processing

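All 4 nitrate differences stayed below 0 for all 94 loci under centring, quantile normalization, 1 row per locus, the near-identical pair kept, each cell type alone, the replicate block, leaving out each replicate number and leaving out the 4 arrays that stood apart. They did so for the 93 loci kept by the filter on dim loci, and for 91 with the heat shock covariate, where the highest of the 4 was 0.051 for AT5G38710, 0.26 for AT1G63530 and 0.029 for ENT6. The rule chose the loci by these 4 differences on the same arrays, so their sign was largely fixed and is no separate check. With the heat shock covariate the cortex rhizobium minus standard count was 12 in place of 30, and ENDO2 there turned to 0.62. The selection found again 84 loci under centring, 88 under quantile normalization, 89 with 1 row per locus and 63 to 76 without a replicate number. Fitting each cell type alone leaves the selection as it is, since the group means do not change.

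The pericycle rhizobium minus standard count of 5 was 3 under centring and 2 with each cell type alone. With each cell type alone, the late minus early count in cortex was 30 in place of 16. The later light counts of 2 and 2 then became 5 in cortex and 0 in pericycle. With 36 h as the later light hour both became 0, and AT2G40250 in pericycle turned to 0.292. Leaving out a replicate number gave 20 to 23 calls for rhizobium minus standard in cortex and 1 to 3 in pericycle, and 23 to 44 for pericycle minus cortex. It gave 3 to 9 calls for late minus early in cortex and 15 to 23 in pericycle, and 0 to 1 and 0 to 2 for the middle of the light. These fits have fewer arrays. The late minus early count in pericycle was 4 with a late window of 24 and 48 h only, and with an early window of 4 and 6 h only the counts were 1 in cortex and 6 in pericycle. The replicate block gave 30 and 6 rhizobium minus standard calls in cortex and pericycle, and 41 between the cell types. It gave 17 and 35 late minus early, and 2 and 3 for the later light hours. None of these counts was over 1.5 times from the count without the block. Where no cause is named, the cause was not tested.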
